A study of Mus musculus with 4 samples.

Results

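The 7 class II and class IV histone deacetylase genes of the mouse, Hdac4, Hdac5, Hdac6, Hdac7, Hdac9, Hdac10 and Hdac11, were examined for binding of their RNA by IGF2BP3 in the testis. They are 7 of 18068 annotated genes in which a read cluster was listed. A cluster was counted for a gene when its centre lay within the gene's span in GENCODE release M21 (mm10), on the gene's own strand. Enhanced crosslinking and immunoprecipitation followed by sequencing (eCLIP-seq) was carried out on whole testes of wild-type C57BL/6 mice aged 8 weeks. The 4 libraries formed 2 replicates, each with 1 immunoprecipitation with an IGF2BP3 antibody (IGF2BP3 IP) and 1 size-matched input (SMInput), which is lysate RNA of the same size range sequenced without the antibody. The series text names an anti-IgG control and 3 biological replicates, whereas the labels and the paper give inputs and 2 replicates, and the labels were followed. The paper also calls the 2 replicates biological, but the labels tie no library to an animal, so the spread between the replicates may be technical.

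Histone deacetylases remove acetyl groups from lysines of histones and other proteins. Class IIa members (Hdac4, Hdac5, Hdac7 and Hdac9) have weak catalytic activity of their own, bind MEF2 transcription factors and corepressors, and leave the nucleus on 14-3-3 proteins once kinases phosphorylate them. In class IIb, Hdac6 acts on tubulin in the cytoplasm and Hdac10 on polyamines, and Hdac11 is the sole class IV member. IGF2BP3 is an RNA-binding protein that is described as a reader of N6-methyladenosine (m6A) in mRNA.

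For each cluster, the tables give the log2(fold change) of IP over SMInput, each scaled to its library, and the −log10(P value) of that comparison. The library totals and the read numbers of each cluster were both worked out from these values. The totals that fitted best were 5133438 IP and 8706391 SMInput reads in replicate 1, and 4637612 and 16696122 in replicate 2. A cluster with both values at 2 or more was called a significant peak, which took in 4.92% of the 337234 clusters of replicate 1 and 13.2% of the 216354 clusters of replicate 2. The exact 95% intervals given below come from the reads (Clopper-Pearson) and cover counting error only.

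The members held 149 clusters in replicate 1, of which 11 (7.38%) were significant, and 109 in replicate 2, of which 23 (21.1%) were significant. Hdac11 supplied 7 of the 11 and 5 of the 23. Without the gene with the most significant peaks, Hdac11 in replicate 1 and Hdac4 in replicate 2, the shares were 3.15% and 16.4%. The 16.4% is 10 of 61 clusters and still holds the 5 peaks of Hdac11, which are pieces of 1 site. It therefore does not show that the other members stood above the 13.2% of all clusters. Hdac4, Hdac5, Hdac6 and Hdac11 had a significant peak in both replicates, 4 of 7 genes, against 33.0% of the 14580 protein-coding genes with a cluster in either replicate. Hdac7 had one in replicate 1 alone, and Hdac9 and Hdac10 in neither. The 4 of 7 fell to 2 with P values adjusted over the table, against 23.8% of protein-coding genes. It fell to 1 with at least 10 IP reads or with both thresholds at 3, against 18.7% and 7.96%. In single replicates, 5 and 4 members had a significant peak, against 40.8% and 62.8% of protein-coding genes with a cluster. Peaks of both replicates that overlapped on the same strand were found in Hdac11 alone, where they joined into 1 site. Of the 6 members with clusters in both replicates, 1 thus had a joined site, against 16.6% of such protein-coding genes.

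**Figure D1:**
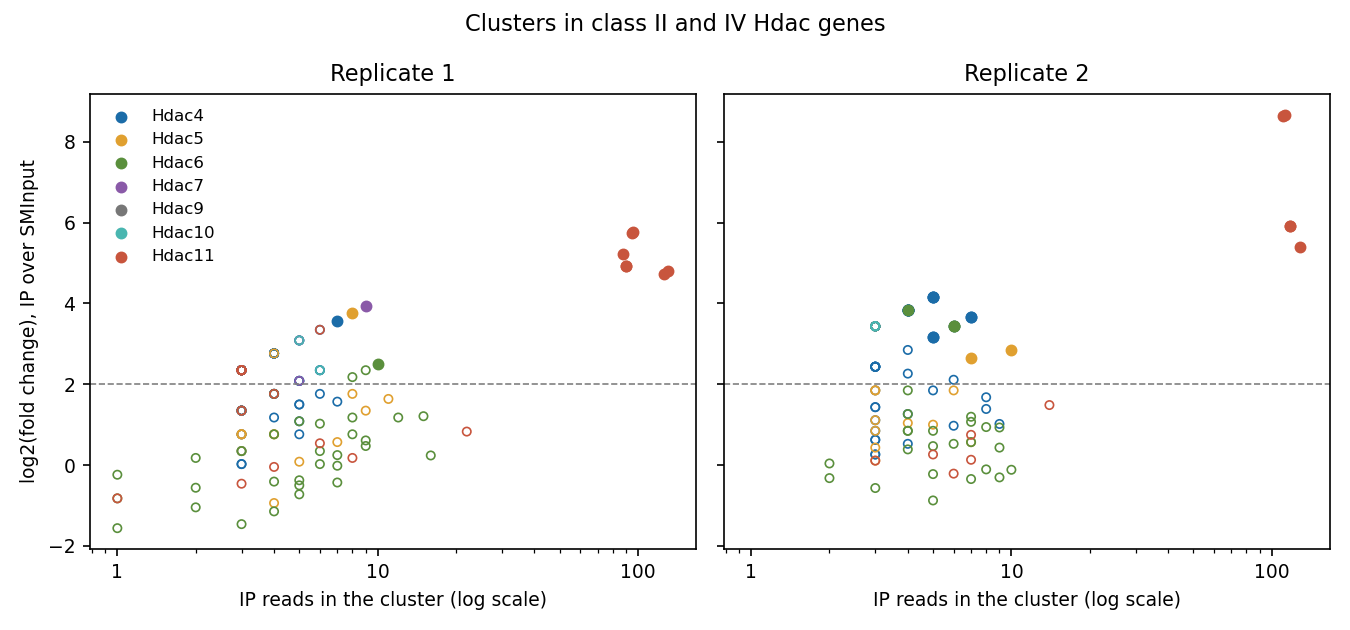
Every cluster in the 7 genes, by its IP reads (log scale) and its log2(fold change) of IP over SMInput, for each replicate. Filled points are significant peaks, open points other clusters, the dashed line marks a log2(fold change) of 2, and points of equal value lie on top of each other. The Hdac11 site stands at 88 to 131 IP reads in replicate 1 and 111 to 129 in replicate 2, where 129 is a lower limit. Open points of clusters listed at a −log10(P value) of 0 also stand at a lower limit of IP reads. Every significant peak of the other members holds 10 or fewer.

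Hdac11 is encoded at chr6:91156665-91174692 (plus strand), with a 3′UTR of 1428 bases in exon 10 of 10. The joined site spanned 122 bases, chr6:91174492-91174613, which begin 1227 bases into the 3′UTR and end 79 bases before the annotated transcript end. An AATAAA poly(A) signal follows it at chr6:91174657-91174662. Replicate 1 listed the site as 7 touching clusters, in which 88 to 131 reads were counted in the IP and 3 to 8 in the SMInput. Replicate 2 listed it as 5 touching clusters, with 111 to 129 in the IP and 1 to 11 in the SMInput. Of these, 129 and 11 are lower limits, for 1 cluster listed at a −log10(P value) of 400. Touching clusters share reads, so these are views of 1 site.

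Values along the site were compared by cluster. In replicate 1, the cluster with the most IP reads lay at chr6:91174530-91174568, with 131 IP and 8 SMInput reads and a log2(fold change) of 4.80 (95% interval 3.77 to 6.04). The highest value there was 5.76 (4.17 to 8.07), at the 3′ end of the site, from 96 IP and 3 SMInput reads. In replicate 2, the cluster with the most IP reads lay at chr6:91174505-91174589, with a log2(fold change) of 5.40 (4.51 to 6.44). Its −log10(P value) was listed at 400, the highest entry, and the fewest reads that give its fold change are 129 and 11. The highest value in replicate 2 was 8.67 (6.16 to 13.98), at the 5′ end of the site, from 113 IP reads and 1 SMInput read. The highest values of the replicates stood at opposite ends, but within each replicate the intervals of the clusters named here overlapped, and positions within a replicate were not tested against each other. The 1 SMInput read is the lowest number in the tables, and whether it was counted or stands in for 0 could not be told. If it stands in for 0, then 8.67, its interval and its rank depend on that choice. With 1 read added to IP and SMInput the value was 7.68. As listed, 8.67 ranked 1 among the 216354 clusters of replicate 2, and 5.76 ranked 48 among the 337234 of replicate 1. By the smaller of both replicates' highest values, the site ranked 11 among 3896 joined sites.

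Whether both replicates gave a cluster the same enrichment was tested on the reads of overlapping clusters, with a two-sided exact conditional test and Benjamini-Hochberg adjustment over all 68845 pairs with recovered reads. Of these pairs, 65 (0.0944%) differed. The members had 38 overlapping pairs, of which 25 could be tested, and 0 differed after adjustment, with 3 at an unadjusted p under 0.05, against 2280 of the 68845 pairs (3.31%). All 3 were pairs of Hdac11 that held a replicate 2 cluster with 1 SMInput read, at the 5′ end of the site, with exact p of 0.00794, 0.0221 and 0.0232 (lowest adjusted p = 0.921). These p depend on that 1 read, and the 3 pairs share reads. At the 3′ end of the site, values of 5.76 and 5.92 gave an exact p of 1.

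Elsewhere in the Hdac11 mRNA the listed log2(fold change) was far lower. Replicate 1 had 6 other clusters in exons, at a log2(fold change) of -0.82 to 1.76. Among those with recovered reads, none had more than 22 IP reads. The 1.76 came from 4 IP and 2 SMInput reads, and its 95% interval of -1.04 to 5.23 overlapped those of the site. Replicate 2 also had 6 other clusters in exons, at -0.21 to 1.49, and none with recovered reads had more than 14 IP reads. Clusters listed at a −log10(P value) of 0 have only a lower limit of reads. The best covered exonic cluster with recovered reads outside the site was chr6:91173530-91173689 in replicate 1. It had 22 IP and 21 SMInput reads in the first part of the 3′UTR (0.83, 95% interval -0.10 to 1.76). Its interval lay below all those of the site, whose lowest bound was 3.66. In the same part of the 3′UTR, chr6:91173723-91173782 in replicate 2 had 14 and 18 reads and a value of 1.49 (0.37 to 2.58), which is under the fold threshold. Introns held 9 clusters in replicate 1, at a log2(fold change) of -0.46 to 3.35, of which 7 passed the fold threshold and 0 the P threshold. Among those with recovered reads, none had more than 6 IP reads. Introns held 0 clusters in replicate 2.

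**Figure D2:**
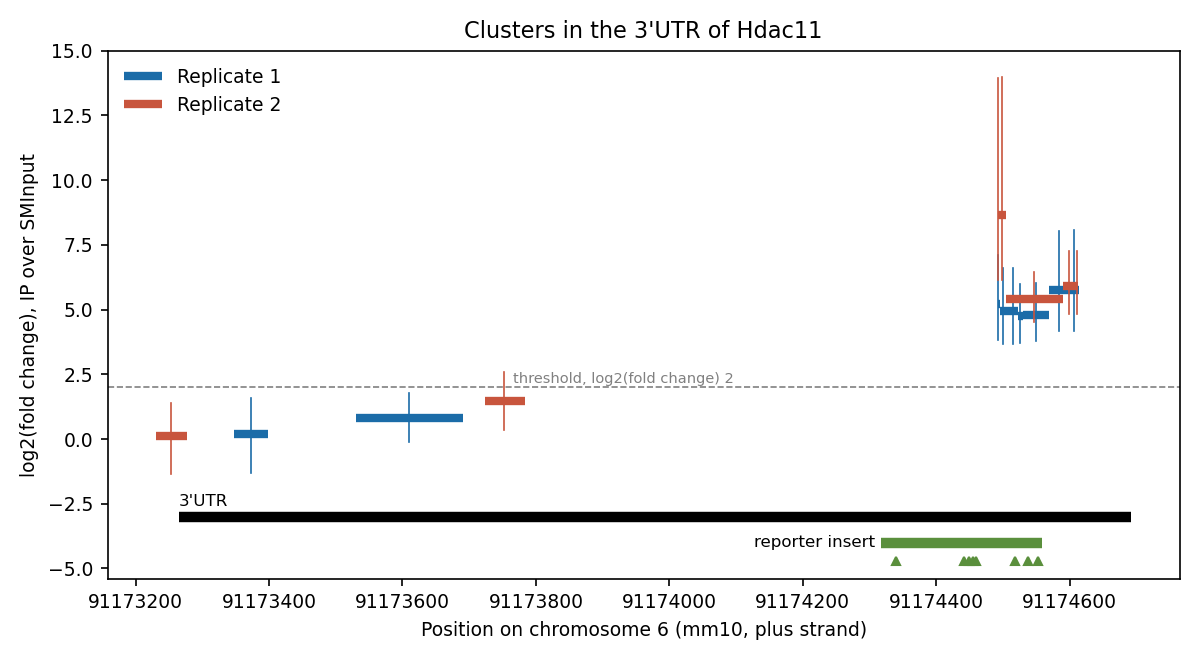
Clusters in the 3′UTR of Hdac11 by position on chromosome 6 and log2(fold change) of IP over SMInput. Thick bars are clusters, thin vertical lines their 95% intervals from read numbers, the green bar the reporter insert and triangles its 8 changed bases. All 7 and 5 clusters of the site lie above the dashed threshold of 2 in both replicates, near the 3′ end.

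The sequence under the site was searched on its strand in a window of 100 bases around its centre, beside the windows of the 2443 joined sites in 3′UTRs. The m6A consensus (A, G or T, then A or G, then AC, then A, C or T) occurred 3 times, at chr6:91174516-91174520, chr6:91174535-91174539 and chr6:91174551-91174555. It occurred at least once in 83.4% of all windows, with a median of 2 matches. CACA occurred 1 time (37% of windows), and GAACA (7.29%), AAACC (8.96%) and GGCA (26.2%) occurred 0 times. The GC content was 55%, against a median of 45%. These are descriptions of letters, and m6A itself was not measured in these libraries.

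The study's fluorescent reporter of Hdac11, a CopGFP gene with mCherry as transfection control, carried 243 bases of this 3′UTR, which match chr6:91174317-91174559. Its mutant differs by 8 A-to-T changes, and all 8 changed bases stand at the methylatable A of an m6A consensus. The first base of the insert (5′) is position 1. A23T, A126T, A133T, A139T and A144T lie 153, 50, 43, 37 and 32 bases before the site. A202T, A221T and A237T lie within peaks of both replicates, where the highest log2(fold change) at the changed base was 4.93, 4.80 and 4.80 in replicate 1 and 5.40 at each in replicate 2. The insert holds the first 68 of the 122 bases of the site, so the clusters with the highest values lie beyond it in replicate 1 (5.76) and inside it in replicate 2 (8.67). The amplicon of the study's m6A immunoprecipitation qPCR, chr6:91174360-91174519, shares 28 bases with the site. The stretch that holds A202T and A221T is shown because it lies under the site and was changed in the mutant. It is the plus strand of mm10 at chr6:91174513-91174542, with the changed bases in capitals.
Hdac11 genome: ctctgActggaggtacctcccaggAcattg
Hdac11 mutant insert: ctctgTctggaggtacctcccaggTcattg

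Among the class IIa genes, Hdac4 had the most clusters. Hdac4, which represses MEF2 targets, lies on the minus strand at chr1:91928779-92195699. It had 61 clusters in replicate 1, of which 1 was significant, and 48 in replicate 2, of which 13 were. The significant peak of replicate 1 lay in intron 2, at chr1:92112279-92112417, with 7 IP reads and 1 SMInput read (3.57, 95% interval 0.61 to 9.06). The 13 peaks of replicate 2 formed 8 separate stretches, with 4 to 7 IP reads and 1 or 2 SMInput reads each and log2(fold change) values from 3.17 to 4.17. Of the 13, 12 lay in introns, 9 of them in intron 2, and 1 in the 3′UTR at chr1:91930975-91931049. None overlapped the peak of replicate 1. Hdac4 therefore held 13 of the members' 23 significant peaks in replicate 2, with 7 or fewer IP reads behind each. In its exons, 12 and 14 clusters had median log2(fold change) values of 1.35 and 1.19.

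Hdac5, a related repressor of MEF2 targets, lies on the minus strand at chr11:102194432-102230166. It had 17 and 14 clusters, of which 15 and 11 lay in exons. Its significant peak in replicate 1 was in exon 18, in CDS at chr11:102199374-102199462, with 8 IP reads and 1 SMInput read (3.76, 95% interval 0.86 to 9.23). In replicate 2, 2 peaks in CDS of exons 7 and 6 were significant. The first, at chr11:102205784-102205910, had 10 IP and 5 SMInput reads (2.85, 1.17 to 4.75). It overlapped a cluster of replicate 1 at chr11:102205800-102205912 with 11 IP and 6 SMInput reads (1.64, 0.08 to 3.36), below both thresholds. It also overlapped one at chr11:102205790-102205799, with 4 and 4 reads (0.76). Neither difference passed the exact test (p = 0.28 and 0.156, adjusted p = 1 for both).

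Hdac7 lies on the minus strand at chr15:97792664-97844502, and Hdac9 at chr12:34047580-34917095. Hdac7 had 7 clusters in replicate 1 and 0 in replicate 2, so it could not be followed in both. Its significant peak lay in the 3′UTR at chr15:97793152-97793227, with 9 IP reads and 1 SMInput read (3.93, 95% interval 1.08 to 9.39). Hdac9 spans 869516 bases and had 7 and 6 clusters, none with more than 3 IP reads. Its highest −log10(P value) was 0.832 and 1.46, below the threshold in both replicates.

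In class IIb, Hdac6, the tubulin deacetylase, lies on the minus strand at chrX:7930120-7947889. It had the most clusters per length of exon, 6.27 per kilobase in replicate 1 and 5.07 in replicate 2, against 4.90 and 4.15 in Hdac11. These clusters were close to the input level, with a median log2(fold change) of 0.10 over 26 clusters in exons in replicate 1 and 0.43 over 21 in replicate 2. For 14 of its 33 clusters in replicate 1 and 11 of 26 in replicate 2, the whole 95% interval lay below a log2(fold change) of 2, against 12.6% and 17.0% of all clusters. The significant peak of replicate 1 lay in CDS of exon 28, with 10 IP and 3 SMInput reads (2.50, with a lower 95% bound of 0.54). Replicate 2 had 3, with 4 to 6 IP reads each, 1 in the 3′UTR and 2 in introns. The intronic peak at chrX:7945430-7945473 (3.43) overlapped a cluster of replicate 1 at 1.18, a difference that did not pass the exact test (p = 0.171, adjusted p = 1).

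Hdac10 lies on the minus strand at chr15:89123307-89128700, and had few clusters. There were 2 in replicate 1, with 5 and 6 IP reads and log2(fold change) values of 3.08 and 2.35, and 4 in replicate 2, with 3 IP reads and a value of 3.43 each. These values passed the fold threshold, but the −log10(P value) reached 1.54 and 1.46 at most. Each 95% interval held 0, so neither enrichment nor its absence could be told at this depth. In these whole testes, fewer cells with an RNA and less RNA per cell cannot be told apart.

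By region, 10 of the 11 significant peaks of the members in replicate 1 lay in 3′UTR or CDS, against 72.1% of all significant peaks in genes. In replicate 2 it was 9 of 23, against 57.5%. Of the 10, 7 are pieces of the 1 Hdac11 site. Without Hdac11 it was 3 of 4 and 4 of 18. The peaks of Hdac4 in introns make up 12 of the 14 that lay outside in replicate 2. Outside Hdac11, the significant peaks held a median of 8.5 IP reads in replicate 1 and 5 in replicate 2. Over all significant peaks with recovered reads it was 13 and 8. With P values adjusted over the table in place of the fixed threshold, which kept 3.24% and 10.4% of all clusters, 9 and 17 peaks of the members passed. Hdac11 and Hdac5 then had a peak in both replicates, 2 of 7 genes, against 23.8% of protein-coding genes. With at least 10 IP reads, or with both thresholds at 3, Hdac11 was the 1 gene left in both, against 18.7% and 7.96%.

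The other deacetylases and the lists below were counted in the same way, and their gene counts stand beside the shares of protein-coding genes given above, 33.0% with a significant peak in both replicates and 16.6% with a joined site. Of 4 class I genes, Hdac1, Hdac2 and Hdac3 had 1 or 2 significant peaks in each replicate, and Hdac8 had 4 clusters in replicate 1 and 0 in replicate 2, none significant. Hdac3, the catalytic subunit of the NCoR and SMRT corepressors, had the 1 joined site among the 3 with clusters in both replicates, in its 3′UTR, with highest log2(fold change) values of 2.76 and 2.85. Of 7 sirtuins, the NAD-dependent class III enzymes, 2 had a significant peak in both replicates, against 33.0%. Of the 6 with clusters in both, Sirt6 alone had a joined site, in its 3′UTR (2.46 and 3.59).

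Genes that act with class IIa enzymes followed. Of 13 partners, all with clusters in both replicates, 5 had a significant peak in both, near the share of 33.0%, and 3 had a joined site, against 16.6%: Mef2a in its 3′UTR (3.76 and 3.11), Mef2d in CDS (2.98 and 2.96) and Tbl1xr1 in an intron (3.57 and 2.33). Mef2a and Mef2d encode MEF2 transcription factors and Tbl1xr1 a corepressor subunit. Of 16 kinases, 15 had a cluster and 7 a significant peak in both. Of the 12 with clusters in both, 2 had a joined site, in the 3′UTR, Mark2 (2.64 and 2.46) and Sik1 (2.93 and 2.33). Of 7 genes for 14-3-3 proteins, 6 had clusters in both, 5 a significant peak in both and 3 a joined site in the 3′UTR, Ywhaq (3.99 and 3.56), Ywhae (3.25 and 2.95) and Ywhaz (2.79 and 3.89). In this list 12.7% and 22.1% of the clusters were significant, against 4.92% and 13.2% of all clusters. Ywhae alone held 10 of the 18 significant clusters in replicate 1 and 8 of the 25 in replicate 2, and without it the shares were 6.78% and 18.5%. The shares were 2.23% and 12% in the partners and 2.85% and 11.9% in the kinases.

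Of 9 Hdac6 partners, 8 had clusters in both replicates, 4 a significant peak in both (33.0% of protein-coding genes) and 2 a joined site in the 3′UTR (16.6%), the chaperone gene Hsp90aa1 (3.53 and 3.96) and the autophagy receptor gene Sqstm1 (2.03 and 2.29). Of 20 genes for subunits of class I complexes, all with clusters in both, 11 had a significant peak in both, against 33.0%, and 2 had a joined site, against 16.6%, Gatad2a in an intron (2.76 and 2.85) and the demethylase gene Kdm1a in its 3′UTR (2.64 and 3.31). Of the clusters, 2.98% and 7.6% were significant in the Hdac6 partners, 3.86% and 9.64% in the class I complexes, 6.45% and 6.67% in the class I genes and 3.2% and 8% in the sirtuins. Without the gene with the most significant peaks in each replicate, the Hdac6 partners had 2.34% and 4.79% and the class I complexes 3.56% and 8.69%. The class I genes then had 4.26% and 4.17%, and the sirtuins, without Sirt2 and Sirt6 respectively, 1.19% and 2.86%. None of these shares was tested against that of all clusters (4.92% and 13.2%). Among the joined sites named from these lists, the highest value was 3.99, against 4.74 or more in every cluster of the Hdac11 site.

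The genes most like Hdac11 were taken by the Euclidean distance between the highest log2(fold change) values of their best joined sites in both replicates, over 2147 other genes with such a site. They were Adam20 (6.25 and 7.46, distance 1.30), the lincRNA 1700104B16Rik (6.39 and 6.86, distance 1.92), Spata3 (6.76 and 6.92, distance 2.02), Spatc1 (5.58 and 6.37) and Gsk3a (5.36 and 6.18, distance 2.52). The sites of Adam20, Spata3 and Gsk3a lay in 3′UTRs and that of Spatc1 in CDS. None reached the 8.67 of Hdac11 in replicate 2, but that value comes from 1 SMInput read. In replicate 2, the cluster of the Hdac11 site with the most IP reads had 5.40 and the median of the site was 5.92. The 5 genes are given by their highest values in replicate 2 (6.18 to 7.46), which cannot be compared like for like with these. The distances were worked out from the highest values alone.

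The tissue was checked against marker genes. Each of 6 spermatid, 4 spermatocyte, 4 spermatogonial, 4 Sertoli cell, 4 Leydig cell and 2 peritubular cell markers had a cluster in both replicates. So did 12312 of the 14580 protein-coding genes with a cluster in either replicate, so these counts do not tell cell types apart. The cell types from which the RNA of the members came were not resolved in these libraries.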

How the data were processed

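IGF2BP3 IP and SMInput libraries of 2 replicates were used. The authors trimmed adapters with cutadapt, removed ribosomal RNA reads with Bowtie2, aligned to mm10 with STAR, collapsed duplicates by molecular identifier and called clusters with Clipper, per replicate. Each deposited −log10(P value) sets the reads of a cluster in the IP against those in the SMInput, with entries from 0 to 400. Each deposited log2(fold change) divides the same reads after scaling to usable reads per library.

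Library totals were first inferred from the listed values, as the candidates that fitted best, and were then taken as known. Reads were recovered as the whole numbers that return both listed values, with a single solution for 99.9% and 99.8% of clusters between 0 and 400. Clusters at 0 or 400 enter intervals with the fewest reads that give their fold change, and enter no exact test. The recovery and the exact test were tested on simulated data. The exact test called a difference in 4.25% of 2000 simulated pairs with equal fold change. With a fold change 4 times higher in replicate 2 it called 64.4% of 2000, so it can miss such differences. Both shares were counted at an unadjusted p under 0.05, whereas the pairs above were called after adjustment, which can only call fewer. A single read setting was simulated, with more IP reads expected than in any tested pair of the members outside Hdac11. The 64.4% is therefore not the power for those pairs, which was not simulated. Regions came from basic GENCODE transcripts, with 3′UTR taken first, then CDS, then 5′UTR, then exons of non-coding transcripts, then introns. Overlap meant at least 1 base on the same strand, and touching peaks of both replicates were joined.

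Named genes are all members and class I genes, up to 3 genes per list with the highest joined sites, and the 5 most like Hdac11. The members and lists were chosen with earlier results of these data known. SciPy 1.17.1 was used.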

Additional observations from a re-analysis of the deposited data

How the results depend on the processing

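No paired analysis was possible because a replicate block needs reads of all 4 libraries over the same intervals, and the tables list other intervals for each replicate. Where clusters overlapped, the exact test above did use reads of all 4 libraries. Their intervals differed between the replicates in every overlapping pair of the members. That test compared the replicates with each other and fitted no replicate block. Each deposited value itself sets an IP against the SMInput of its own replicate, so what is missing is an unpaired counterpart. Of 39 alternatives to the results, 30 stayed within 1.5 times of the count, or within the counting interval of the value, and 9 moved. In replicate 2, the members' significant peaks went from 23 to 7 with both thresholds at 3 and to 6 with at least 10 IP reads, and those in 3′UTR or CDS from 9 to 5 with both thresholds at 3. The members with a significant peak in both replicates went from 4 to 1 under either of these settings, to 2 with adjusted P values and to 2 when a peak went to the gene whose start site was closest, whatever its strand. Apart from these, without replicate 1 or without replicate 2, 4 to 5 members had a peak, a count that cannot be lower because no peak is then asked of the other replicate. The strongest log2(fold change) of the Hdac11 site in replicate 2 went from 8.67 to 5.40 for the cluster with the most IP reads and to 5.92 for the median of its clusters. The joined site of Hdac11 stayed the 1 site under all 6 alternatives tried for it. Outside Hdac11, 3 of 4 significant peaks in replicate 1 and 17 of 18 in replicate 2 held fewer than 10 IP reads. Over all significant peaks with recovered reads the shares were 29.1% and 62%, and the fewest IP reads behind any of these were 7 and 4.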
